A study of Mus musculus with 6 samples.

Results

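The genes described here build and supply the photoreceptor cilium: the subunits of intraflagellar transport (IFT), the kinesin-2 motors that pull them, the BBSome and its assembly factors, the proteins of the transition zone, and the carriers of lipid-modified cargo. They were chosen by name, as a list of 57 symbols, and the rule uses no measured value, though the list was drawn up with earlier results of these data known. The deposited table of 22731 genes held 56 of them. Tmem237 was not found under that symbol and was not analysed here. RPKM, the unit of the table, divides the reads of a gene by the length of its model and by the depth of the library. All 56 reached a 6-library average of 1 RPKM and were among the 12599 genes tested.

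The study compared retinas of mice in which rod photoreceptors lose Dicer1, the ribonuclease that cuts microRNA precursors, with retinas of littermates that keep it. Both groups had the genotype Dicerfl/fl on a mixed C57BL/6J - SJL background and were 4 weeks old. The conditional knockout (cKO) mice were iCre75+, with a transgene that drives Cre recombinase in rods, and the control mice were iCre75-. Each group had 3 libraries of retinal poly(A) RNA, cKO replicates 2, 3 and 4 and control replicates 1, 2 and 3, each pooled from 4 mice with tissue taken between 8 and 10 in the morning. Recombination in rods leaves Dicer1 in every other cell of the retina, and the RNA is from whole retina.

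The outer segment of a rod or cone is a modified primary cilium. It has no ribosomes, so its proteins are made in the inner segment and cross a narrow connecting cilium, which corresponds to the transition zone of other cilia. IFT trains carry cargo outward on kinesin-2 and return on dynein-2, the BBSome acts as a cargo adaptor that keeps unwanted proteins out of the outer segment, and the carriers UNC119 and PDE6D take lipidated proteins such as transducin and phosphodiesterase through the cytosol. Inherited loss of many of these genes causes retinal degeneration in people, often together with disease of other ciliated organs.

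The libraries held 12336599 to 32935029 reads in genes, worked back from the RPKM steps, with cKO replicate 4 the shallowest. Each of the 56 genes rested on at least 103 reads in each library. Dicer1 was at 8.48, 8.77 and 8.33 RPKM in the controls and 8.02, 7.06 and 7.90 RPKM in the cKO. The difference was −0.15 ± 0.079 (SE) on the log2 scale, with a limma adjusted p of 0.931. A gene-level value also counts exons outside the floxed part and cells that keep Dicer1, so it checks the genotype only weakly. Over all 12599 genes tested, limma called 1 gene at an adjusted p of 0.05, or 0.00794%, and that gene, Prm1, is no cilium gene. Prm1 was at 0, 0.385 and 0.185 RPKM in the controls and 787, 818 and 1137 RPKM in the cKO. The source of that difference was not tested. Of 96 tested marker genes for 12 cell types, limma called 0 and 4 had an unadjusted p under 0.05. The 14 rod markers summed to between 28275 and 33362 RPKM in the controls and between 27134 and 29789 RPKM in the cKO, so the tissue carried its defining transcripts. Motile cilium markers, which would mark ependymal or airway-type cilia, summed to only 11.2 to 12.8 RPKM in any library. Lens markers ranged from 220.2 to 3364 RPKM between libraries, with wide overlap of the groups, and their part in the results was not tested. In bulk RNA, fewer cells of a type and less RNA per cell cannot be told apart.

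Per kilobase of gene model, the cilium genes spanned 3 orders of level. Unc119 was far above the rest, at a mean of 1908 RPKM over the 6 libraries, and made up 60.9% of the summed RPKM of the whole set. Arl3, Rpgrip1, Pde6d and Ift20 followed, at means of 253, 117, 61.3 and 52.3 RPKM. These 5 were the genes at or above 50 RPKM. Another 29 lay between 10 and 50 RPKM and 22 under 10 RPKM. Invs, Kif17, Ttc26, Rpgr and Rpgrip1l were the lowest, at means of 1.67, 1.77, 1.80, 1.96 and 2.03 RPKM. A level for Rpgr covers the whole gene and does not separate the transcript forms it has in retina.

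**Figure D1:**
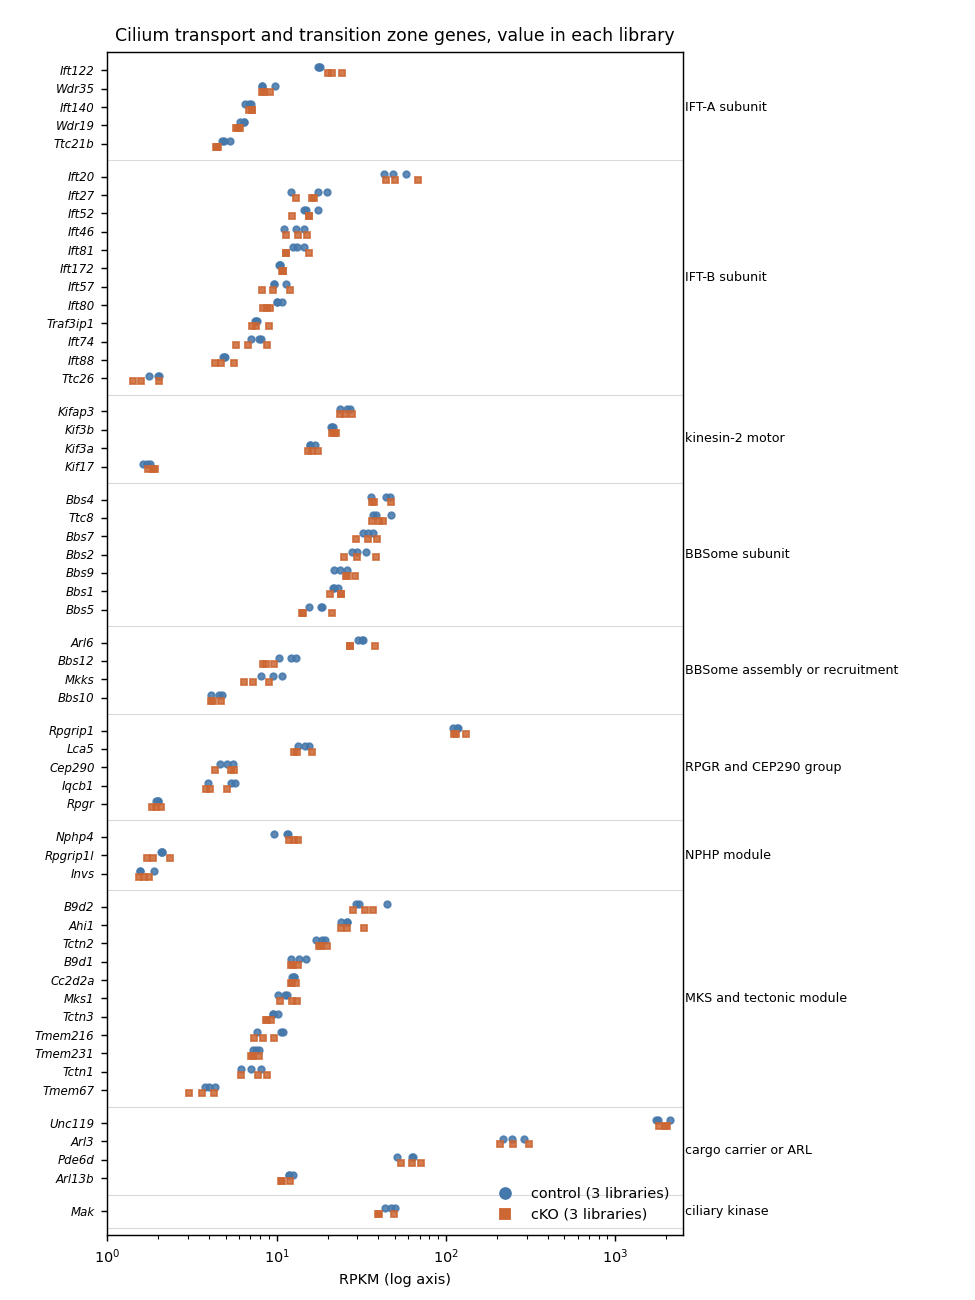
RPKM of each of the 56 cilium genes (log axis) in the 3 control libraries (blue circles) and the 3 cKO libraries (orange squares), grouped by role and ordered by level. Unc119 lies at 1743 to 2119 RPKM, far to the right of the others, and the control and cKO points of most genes lie over each other.

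A sequence feature that the list did not use was looked for in the promoters. Many ciliary genes carry an X-box, a pair of inverted half-sites bound by RFX transcription factors, and the half-site GTTGCC was searched on both strands in windows from 250 bases before to 50 bases after the first listed start (RefSeq, GRCm38.p6). A window was found for 52 of the 56 genes, and 24 of the 52 (46.2%) held the half-site, against 12.9% of the 8926 windows of tested genes and 12.7% of all 27025 windows. In 12 of the 24 the half-site lay only at or after the start. The MKS and tectonic genes held it most often, in 8 of 10 windows, and IFT-B genes in 6 of 10. None of the 4 BBSome assembly or recruitment genes and none of the 3 NPHP module genes did. A stricter form, with the half-site followed by AAC after 4 or 5 bases (GTTGCCNNNNAAC or GTTGCCNNNNNAAC, either strand), was chosen after these sequences had been seen. It matched in 10 of the 52 windows (19.2%), those of Ahi1, B9d2, Bbs7, Ift140, Ift57, Kif17, Mks1, Tctn1, Tctn3 and Ttc26, against 1.18% of the windows of tested genes. The letters TAATCC, the core bound by the photoreceptor factor CRX, were in 3 of the 52 windows (5.8%, against 5.6% of tested genes). The letters TGCTGA, the core of the NRL site, were in 9 (17.3%, against 14.6%). The longer form holds the half-site, and matches of the 3 short motifs shared a base in 0 of the 52 windows. A match is a stretch of letters, not a measured binding site.

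The 8 stretches printed here belong to the genes with the highest mean RPKM among those with a half-site before the start. They run 5′ to 3′ along the gene and end at or before the start, with the half-site in capitals.
Bbs7 (chr3:36613481-36613534, minus strand): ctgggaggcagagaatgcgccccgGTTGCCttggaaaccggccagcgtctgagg
Kif3a (chr11:53567247-53567300, plus strand): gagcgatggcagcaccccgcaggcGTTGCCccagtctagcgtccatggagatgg
Ift27 (chr15:78174082-78174114, minus strand): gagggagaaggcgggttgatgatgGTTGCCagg
Arl13b (chr16:62847192-62847245, minus strand): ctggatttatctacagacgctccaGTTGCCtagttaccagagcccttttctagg
Mks1 (chr11:87853167-87853214, plus strand): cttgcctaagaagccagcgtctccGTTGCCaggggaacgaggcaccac
Ift57 (chr16:49699210-49699263, plus strand): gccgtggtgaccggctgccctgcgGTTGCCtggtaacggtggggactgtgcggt
Tctn3 (chr19:40612342-40612395, minus strand): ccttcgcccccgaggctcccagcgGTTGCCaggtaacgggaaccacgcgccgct
Traf3ip1 (chr1:91494565-91494618, plus strand): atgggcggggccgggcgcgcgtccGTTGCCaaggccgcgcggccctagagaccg
The half-site began between 9 bases before the start, in Ift27, and 181 bases before it, in Arl13b. Ift57 held another one 87 bases before the start. Genes with and without the half-site had like levels, with medians of 11.5 and 12.8 RPKM, and like differences between cKO and control, with median log2 fold changes of −0.011 and −0.026.

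**Figure D2:**
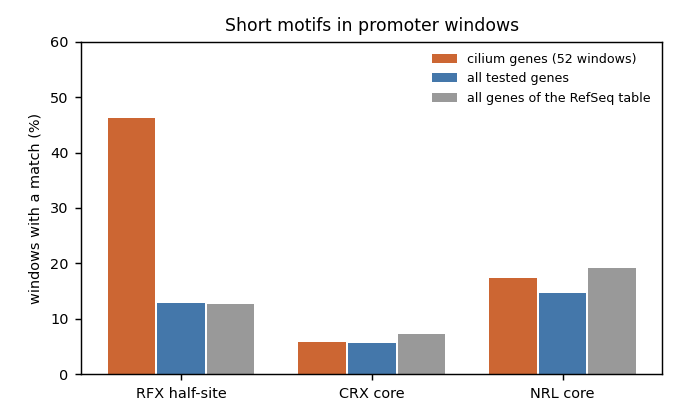
Share of promoter windows (%) that hold each short motif, for the 52 cilium gene windows (orange), the windows of all tested genes (blue) and all windows of the RefSeq table (grey). The RFX half-site is in 46.2% of the cilium gene windows and in 12.9% of those of tested genes, while the CRX and NRL cores are at similar shares in all 3.

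No cilium gene differed between cKO and control retina at the adjusted threshold. The limma adjusted p of the 56 genes lay between 0.701 and 0.998, and log2 fold changes ran from −0.39 for Bbs12 to 0.29 for Ift122. On the log2 scale the average of 22 genes was above control and that of 34 below, with a median difference of −0.015. Over all 12599 genes, 48.4% were above and 51.6% below, with a median of −0.0050. An unadjusted limma p under 0.05 was found for 3 of the 56 (5.36%), near the 5.71% of all genes. Of them Ift122 was higher (2.65% of all genes) and Bbs12 and Ift80 were lower (3.06%). In 7 genes (12.5%) the 3 cKO values lay all above or all below the 3 control values, also near the 11.7% of all genes. Above control were Ift122, Nphp4 and Ift172 (5.91% of all genes), and below it Bbs12, Ift80, Ttc21b and Tctn3 (5.78%). The 95% interval of the log2 fold change, not adjusted for the number of genes, lay within −0.5 to 0.5 for 51 of the 56, and over the whole set its bounds reached from −0.64 to 0.51. Differences inside an interval could not be resolved with 3 libraries a group.

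**Figure D3:**
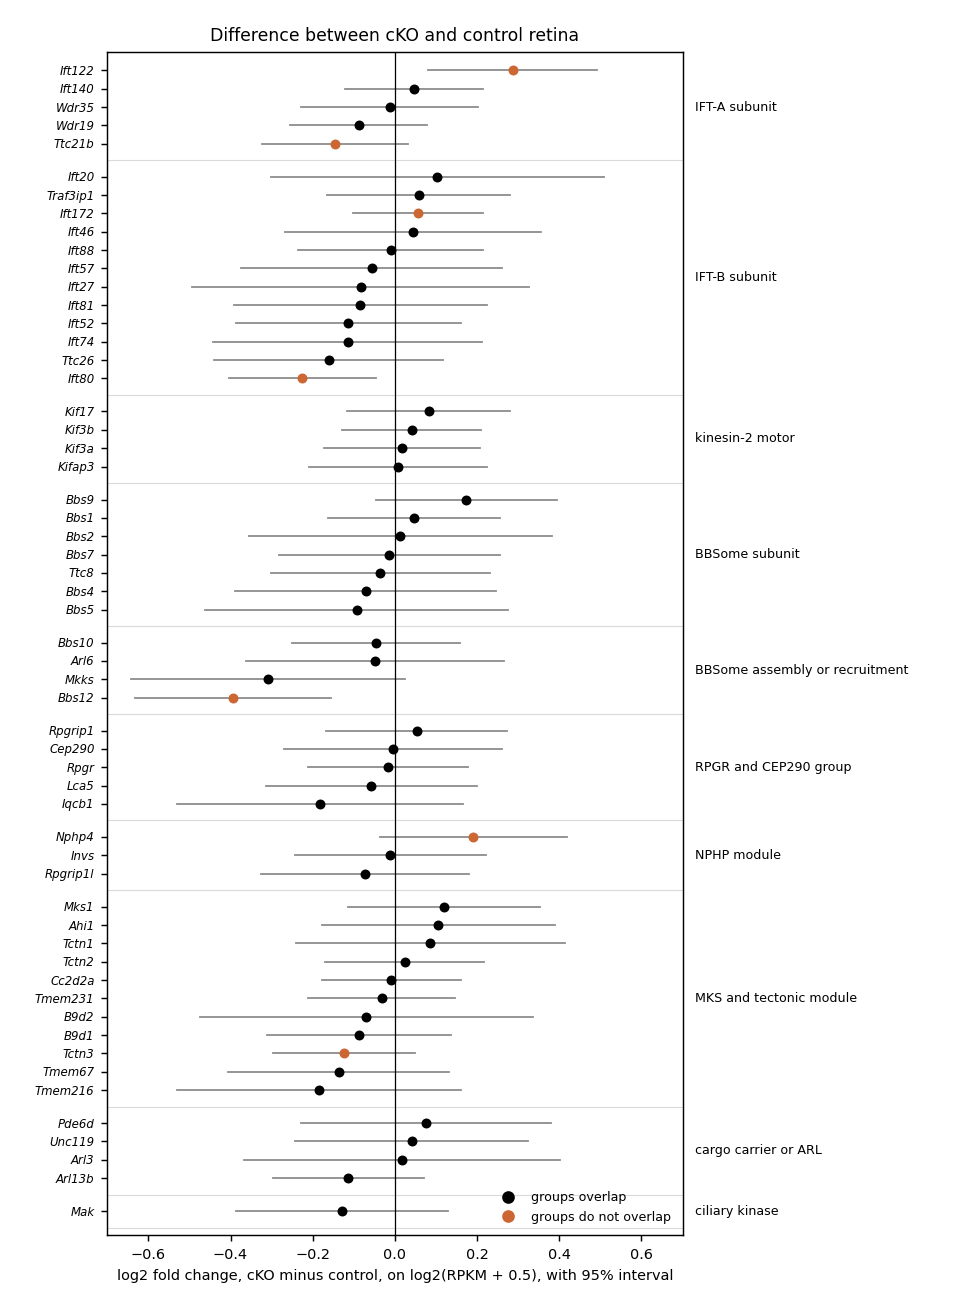
Log2 fold change of each cilium gene, cKO minus control on the log2(RPKM + 0.5) scale (points), with its unadjusted 95% interval (lines), grouped by role. The 7 genes whose groups do not overlap are orange, and the intervals of Bbs12, Ift80 and Ift122 are the 3 that leave out 0.

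Among the IFT-A genes, whose products form the complex for return transport and for entry of membrane proteins, Ift122 was the most abundant and had the largest positive difference of the whole set. Its level was 17.7, 17.9 and 18.1 RPKM in the controls and 20.2, 21.4 and 24.3 RPKM in the cKO, or 17.9 ± 0.218 and 22.0 ± 2.08 RPKM (SD, n = 3 each). The groups did not overlap, and the cKO values were spread more widely than the controls. The log2 difference of Ift122 was 0.29 ± 0.089 (SE, limma adjusted p = 0.848), and 0.21 without cKO replicate 4. A two-sided exact permutation test gave p = 0.1, which is the floor for 3 libraries against 3. Ttc21b, which encodes another IFT-A subunit, lay below control in each cKO library. It was at 4.73, 4.89 and 5.34 RPKM in the controls and 4.40, 4.46 and 4.51 RPKM in the cKO, again with no overlap (by limma −0.14 ± 0.077 SE on the log2 scale, adjusted p = 0.929). The remaining 3 subunit genes overlapped between the groups: Ift140 had means of 6.81 and 7.04 RPKM, Wdr19 of 6.33 and 5.92 RPKM and Wdr35 of 8.72 and 8.62 RPKM in control and cKO.

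IFT-B, the complex for outward transport, was represented by 12 genes, of which 4 averaged above control on the log2 scale and 8 below. Ift20, whose product links IFT to the Golgi, was the most abundant at 48.8, 43.3 and 58.3 RPKM in the controls and 44.4, 50.3 and 68.6 RPKM in the cKO. The groups overlapped (log2 difference 0.10 ± 0.18 SE, limma adjusted p = 0.997). That difference was −0.0747 without cKO replicate 4, 0.0042 without control replicate 2 and 0.216 without control replicate 3. Ift80 was lower in each cKO library, with 8.30, 8.77 and 9.18 RPKM against 10.8, 10.0 and 10.1 RPKM (by limma −0.22 ± 0.077 SE on the log2 scale, adjusted p = 0.848, exact permutation p = 0.1). Over the 19 alternatives it lay between −0.27 and −0.19. Since its groups did not overlap, leaving out libraries could not turn its sign. Ift172, the largest IFT-B protein, had the tightest values of the set, at 10.5, 10.3 and 10.4 RPKM in the controls and 10.8, 11.0 and 10.9 RPKM in the cKO. Its groups did not overlap, but the difference was small (log2 difference 0.057 ± 0.068 SE, limma adjusted p = 0.997). Ift88, the gene of the IFT-B subunit whose mutation is the classic mouse model of cilium loss, was at 4.85, 4.87 and 4.96 RPKM and at 4.34, 4.72 and 5.58 RPKM, with cKO values on both sides of the controls. Ttc26, the least abundant, was at 2.02, 1.76 and 2.00 RPKM in the controls and 1.43, 1.59 and 2.03 RPKM in the cKO (by limma −0.16 ± 0.12 SE on the log2 scale, adjusted p = 0.974). It was −0.077 without cKO replicate 2 and −0.27 without cKO replicate 4. The other 7 IFT-B genes overlapped between the groups. Their log2 differences ran from −0.12 for Ift74 to 0.058 for Traf3ip1, with Ift27, Ift46, Ift52, Ift57 and Ift81 between them.

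The heterotrimeric kinesin-2 motor is formed by KIF3A, KIF3B and the associated protein KIFAP3, and its 3 genes stood at like levels. Kifap3 was at 26.0, 23.7 and 27.0 RPKM in the controls and 23.8, 25.5 and 27.9 RPKM in the cKO, Kif3b had means of 21.2 ± 0.333 and 21.8 ± 0.547 RPKM, and Kif3a means of 16.2 ± 0.629 and 16.4 ± 1.08 RPKM (SD, n = 3 each). Kif17, the gene of the homodimeric kinesin-2, was far lower per kilobase: its mean over the 6 libraries was 1.77 RPKM, and Kif3b stood 12.1-fold above it. Single Kif17 values were 1.79, 1.72 and 1.62 RPKM in the controls and 1.91, 1.87 and 1.74 RPKM in the cKO, which overlapped. All 4 motor genes had a log2 fold change between 0.0081 and 0.082 and an interval within −0.5 to 0.5. The sign for Kifap3 turned under upper-quartile scaling, to −0.017, under quantile normalization, to −0.017, and in the voom fit, to −0.013, so no direction is given to the motor genes as a family.

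The 7 genes of BBSome subunits were the most even class, with means over the 6 libraries from 17.0 RPKM for Bbs5 to 41.5 RPKM for Bbs4, a 2.44-fold range, against 29.0-fold among IFT-B genes. Bbs4 was at 44.6, 36.1 and 46.9 RPKM in the controls and 36.6, 37.7 and 47.2 RPKM in the cKO, with full overlap. Bbs9, the gene of a scaffold subunit, had the largest difference of the class, at 23.7, 21.9 and 26.0 RPKM against 25.7, 26.2 and 29.0 RPKM (log2 difference 0.17 ± 0.095 SE, limma adjusted p = 0.931). Bbs2 had the largest SD of the class within the cKO in RPKM, at 24.9, 29.9 and 38.7 RPKM, around controls of 29.9, 27.8 and 33.8 RPKM. Bbs5, Ttc8, Bbs7 and Bbs1 had log2 differences of −0.093, −0.035, −0.013 and 0.046. In all, 3 subunit genes averaged above control and 4 below, and the groups of each overlapped.

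The 4 genes that assemble or recruit the BBSome all averaged below control on the log2 scale, with a median difference of −0.18, and 0 passed. The shared sign did not hold throughout, since Arl6 was at 0.032 without cKO replicate 2 and at 0.031 without cKO replicate 3. Bbs12, which encodes a chaperonin-like protein of the BBSome assembly complex, had the largest difference of the set. It was at 12.1, 10.4 and 13.0 RPKM in the controls and 8.63, 8.32 and 9.61 RPKM in the cKO, or 11.8 ± 1.33 and 8.85 ± 0.675 RPKM (SD, n = 3 each), which is 74.9% of the control mean. The groups did not overlap. Its difference on the log2 scale, −0.39 ± 0.10 (SE), missed the threshold (limma adjusted p = 0.701, exact permutation p = 0.1) and lay between −0.48 and −0.33 over the 19 alternatives. Mkks, a second chaperonin-like gene of that complex, was at 9.57, 8.06 and 10.8 RPKM in the controls and 6.44, 7.23 and 9.06 RPKM in the cKO (by limma −0.31 ± 0.14 SE on the log2 scale, adjusted p = 0.900). Its groups overlapped through cKO replicate 4 and control replicate 2, and the difference was −0.205 without cKO replicate 2. Of the annotated exonic bases of Mkks, 29.3% are shared with other protein-coding genes, Slx4ip on the opposite strand among them. Of the 56 genes 11 share such bases, with Tctn1 next at 19.0% and then Rpgrip1 at 8.7%. The labels' protocol describes no strand marking, and without strand reads in shared bases cannot be assigned to one gene. The third chaperonin-like gene, Bbs10, had means of 4.48 ± 0.327 and 4.33 ± 0.317 RPKM. Arl6, the GTPase gene that brings the BBSome to membranes and the most abundant of the 4, was at 30.2, 32.0 and 32.3 RPKM in the controls. In the cKO it was at 27.2, 27.2 and 38.0 RPKM, 2 libraries below and 1 above every control.

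Connecting cilium genes tied to RPGR and CEP290 spanned a wide range of levels. Rpgrip1, which anchors RPGR at the connecting cilium, was at 118, 116 and 111 RPKM in the controls and 112, 115 and 131 RPKM in the cKO (log2 difference 0.053 ± 0.096 SE, limma adjusted p = 0.997). Rpgr itself was at 1.99, 1.93 and 2.00 RPKM and at 1.94, 1.83 and 2.08 RPKM, and its mean was 59.8-fold below that of Rpgrip1 per kilobase. Cep290, mutated in a frequent form of childhood blindness, was at 5.13, 5.57 and 4.62 RPKM in the controls and 5.39, 4.31 and 5.61 RPKM in the cKO, with means of 5.10 and 5.11 RPKM. Iqcb1, whose product binds calmodulin and CEP290, had the smallest p of the class but overlapped, at 5.38, 3.94 and 5.69 RPKM against 3.83, 4.05 and 5.10 RPKM (by limma −0.18 ± 0.15 SE on the log2 scale, adjusted p = 0.984). Leaving out control replicate 2 or control replicate 3 moved the difference to −0.33 or −0.091, and leaving out cKO replicate 2 or cKO replicate 4 to −0.11 or −0.295. In each group its replicate 2 library was the lowest. Lca5, which encodes lebercilin, had means of 14.6 and 14.1 RPKM in control and cKO, with overlap.

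In the NPHP module, a set of scaffold proteins of the transition zone, Nphp4 was both the most abundant gene and the one with the smallest p. Control values were 11.8, 11.6 and 9.69 RPKM and cKO values 12.6, 11.8 and 13.4 RPKM. The groups did not overlap, though the lowest cKO value lay just above the highest control (log2 difference 0.19 ± 0.098 SE, limma adjusted p = 0.923). Without control replicate 3, the lowest control, the log2 fold change was 0.11. Invs, which encodes inversin, and Rpgrip1l had log2 fold changes of −0.011 and −0.073.

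The MKS and tectonic genes encode the membrane and B9-domain proteins that form the gate of the transition zone. Of the 11 measured, 4 averaged above control on the log2 scale and 7 below. B9d2 was the most abundant, at 30.8, 29.4 and 44.9 RPKM in the controls and 28.2, 33.4 and 37.4 RPKM in the cKO. Control replicate 3 stood well above the other controls. Tctn3, a tectonic gene, was lower in each cKO library, at 8.62, 8.78 and 9.29 RPKM against 9.56, 9.48 and 10.2 RPKM (by limma −0.12 ± 0.075 SE on the log2 scale, adjusted p = 0.944). Tmem216, whose product is a small membrane protein of the gate, was at 10.6, 7.68 and 10.9 RPKM in the controls and 7.41, 8.35 and 9.65 RPKM in the cKO, with control replicate 2 inside the cKO range. The log2 difference of −0.18 lay between −0.34 without control replicate 2 and −0.0965 without control replicate 3. Ahi1, which encodes jouberin, was at 26.2, 24.2 and 26.0 RPKM and at 24.0, 26.2 and 32.9 RPKM. Its mean was higher in cKO through replicate 4 alone, and the log2 fold change of 0.11 became −0.023 without that library. Mks1 was at 10.2, 11.3 and 11.5 RPKM and at 10.5, 12.3 and 13.1 RPKM (log2 difference 0.12 ± 0.10 SE, limma adjusted p = 0.984). That difference was 0.054 without cKO replicate 4, 0.070 without control replicate 1 and 0.21 without cKO replicate 2. The other 6 genes of the gate, Tctn1, Tctn2, B9d1, Cc2d2a, Tmem231 and Tmem67, overlapped between the groups, with log2 differences from −0.14 for Tmem67 to 0.086 for Tctn1.

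Carriers of lipidated cargo were the most abundant class. Unc119, whose product binds the acylated tail of rod transducin, was at 1788, 1743 and 2119 RPKM in the controls and 1805, 2027 and 1967 RPKM in the cKO (by limma 0.041 ± 0.12 SE on the log2 scale, adjusted p = 0.997). Per kilobase it stood 7.53-fold above Arl3, the GTPase gene whose product releases cargo from both carriers. Arl3 was at 245, 219 and 290.0 RPKM in the controls and 209.6, 248 and 309 RPKM in the cKO. Pde6d, the gene of the carrier for prenylated phosphodiesterase, was at 63.3, 51.7 and 63.7 RPKM and at 54.3, 63.1 and 71.4 RPKM. For these 3 genes the replicate 2 library was the lowest of its group, and the groups overlapped. Arl13b, which encodes the activator of ARL3 in the cilium, was at 11.9, 11.8 and 12.5 RPKM in the controls and 10.7, 10.8 and 11.97 RPKM in the cKO (log2 difference −0.11 ± 0.079 SE, limma adjusted p = 0.970). Mak, the gene of a kinase that limits the length of the photoreceptor axoneme, was at 47.5, 43.8 and 50.0 RPKM and at 40.4, 39.7 and 49.6 RPKM, which overlapped (by limma −0.13 ± 0.11 SE on the log2 scale, adjusted p = 0.985). It was −0.23 without cKO replicate 4 and −0.071 without cKO replicate 3.

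**Figure D4:**
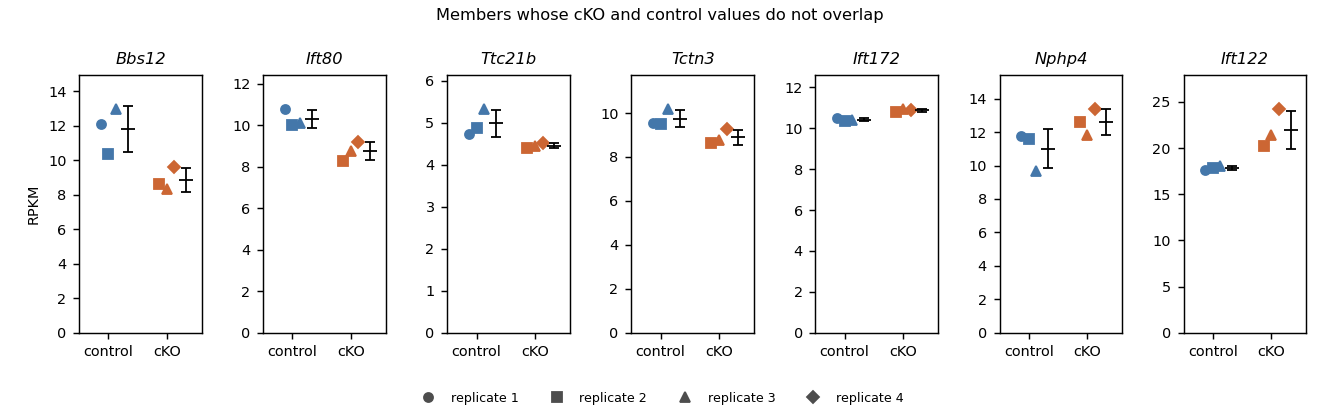
RPKM in each library for the 7 cilium genes whose control (blue) and cKO (orange) values do not overlap, with the mean and SD of each group (black, n = 3) and a marker for each replicate number. Bbs12, Ift80, Ttc21b and Tctn3 lie lower and Ift172, Nphp4 and Ift122 higher in cKO. The cKO mean runs from 74.9% of the control mean for Bbs12 to 123% for Ift122.

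The highest and lowest values of these genes fell in the same few libraries, in both groups. For 47 of the 56 genes the highest value was in cKO replicate 4 (30 genes) or control replicate 3 (17 genes). The lowest value was in cKO replicate 2 or control replicate 2 for 37 genes. Within the cKO group, replicate 4 exceeded replicate 2 for 50 of the 56, and within the controls replicate 3 exceeded replicate 2 for 45. Matching counts over all genes tested were not made, so these counts are not read as particular to the 56. The shift was larger for genes with short models. Over the 28 genes under the median length of 3266 bp, the median log2 difference from the control mean was −0.22 in cKO replicate 2, 0.11 in cKO replicate 4, −0.11 in control replicate 2 and 0.14 in control replicate 3. Over the 28 longer genes the same medians were −0.045, 0.072, −0.026 and 0.020. All 12599 genes tested moved in the same libraries, by −0.048, 0.046, −0.039 and 0.039. The deviation of a library from the gene mean went with model length over the 56 genes, with Spearman's rho between −0.61 in control replicate 3 and 0.56 in cKO replicate 2, and over all genes tested between −0.48 and 0.48. These correlations are across genes that share a library, and they are given as a description. The cause of the trend was not tested, and removing it within each library left 0 cilium genes past the threshold, with the lowest limma adjusted p at 0.319 for Bbs12.

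**Figure D5:**
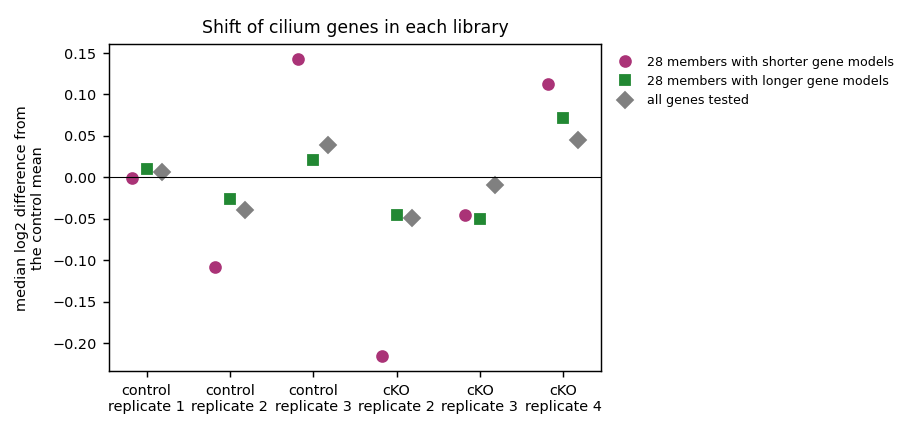
Median log2 difference from the control mean in each library, for the 28 cilium genes with shorter models (circles), the 28 with longer models (squares) and all genes tested (diamonds). The shorter genes reach from −0.22 in cKO replicate 2 to 0.14 in control replicate 3, while both groups have libraries above and below 0.

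The split into genes above and below control turned with single libraries. Without cKO replicate 2 there were 34 higher and 22 lower genes, and without cKO replicate 4 there were 11 higher and 45 lower. Leaving out control replicate 2 gave 16 higher and 40 lower, and leaving out control replicate 3 gave 28 of each. No common direction is given for the set. In 24 genes the sign was the same in each alternative that tested them, 9 above and 15 below control. The 7 genes without overlap were among them, but leaving out libraries or changing the pseudocount, filter or variance trend could not turn their sign. In the cKO the SD was larger than in the controls for 37 of the 56 genes, and the median coefficient of variation was 11.8% against 7.06%. Over all genes tested the median was 9.83% in the cKO and 8.51% in the controls.

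Other genes of the pathway, which the list above leaves out, were looked at in the same way. Of 55 in the table, 52 were tested and 0 passed the adjusted threshold, with 4 higher and 4 lower at an unadjusted limma p under 0.05. These 8 were 15.4% of the 52, against 5.71% of all genes (2.65% higher, 3.06% lower). The groups did not overlap in 12 (23.1%), against 11.7% of all genes. These lists were drawn up with earlier results of these data known, so the shares only describe them. Tulp1, a tubby-like protein gene needed for transport to the outer segment, was the most abundant of the other IFT and dynein-2 genes, at 474, 523 and 531 RPKM in the controls and 539.6, 547 and 498 RPKM in the cKO. Ttc30a1, an IFT-B gene with close copies, was at 3.08, 3.36 and 3.53 RPKM and at 2.88, 2.75 and 2.75 RPKM (limma adjusted p = 0.848). Some of its reads may not be assignable to 1 copy. Unc119b, the paralog of Unc119, was at 16.6, 16.5 and 16.4 RPKM in the controls and 20.6, 19.2 and 18.7 RPKM in the cKO, with no overlap (log2 difference 0.23 ± 0.076 SE, limma adjusted p = 0.848). Nek8, a kinase gene of the inversin compartment, was at 1.21, 1.37 and 1.21 RPKM and at 1.82, 1.55 and 1.53 RPKM (by limma 0.27 ± 0.099 SE on the log2 scale, adjusted p = 0.848). Arl2bp and Fam161a, the most abundant of their lists, had means of 83.3 and 82.5 RPKM and of 75.4 and 75.0 RPKM in control and cKO.

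Of the axoneme genes and their membrane links 12 were in the table. In 5 of the 10 tested, against 11.7% of all genes, the groups did not overlap, 2 above and 3 below control, and 0 passed. Myo7a, the gene of a myosin that moves opsin and pigment granules and is also strong in pigment epithelium, was at 8.56, 9.23 and 7.53 RPKM in the controls and 11.98, 12.3 and 11.0 RPKM in the cKO (log2 difference 0.46 ± 0.095 SE, limma adjusted p = 0.502). Pigment epithelium markers, which a dissected retina can carry, summed to between 315 and 353 RPKM in the controls and between 331 and 369 RPKM in the cKO, and their part in the Myo7a values was not tested. Rp1, a microtubule protein gene of the photoreceptor axoneme, was lower in each cKO library, at 80.0, 72.3 and 87.2 RPKM against 93.7, 93.8 and 89.5 RPKM (by limma −0.21 ± 0.097 SE on the log2 scale, adjusted p = 0.883).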

How the data were processed

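The deposited table gives RPKM per gene and library, per the file headers and labels. The authors' pipeline used GSNAP, HTSeq and the mm9 build, per the submitters' processing notes; neither annotation nor length model is named in them. The protocol describes no strand marking, per the labels' protocols. RPKM is no count, so limma 3.58.1 (R 4.3.3) was run on log2(RPKM + 0.5), with a variance trend, on the 12599 genes averaging 1 RPKM or more. Tests were two-sided, with Benjamini-Hochberg adjustment over all genes tested and a threshold of 0.05. The controls were littermates of the cKO mice, but nothing in the labels says which pools shared litters. The tests treat the pools as independent, and p-values measure the spread between these pools. The design text calls them biological replicates.

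Reads were worked back from the RPKM steps, which are whole multiples of 1 read per gene. They were found for all 19140 genes above 0. The denominator of cKO replicate 4 was halved, since 1.04% of its first numbers were odd against at least 52.0% elsewhere. The step was tested on simulated data. No 2 libraries of the same group were copies.

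Members and lists were chosen with earlier results of these data known. Genes named are, per role class, the most abundant and the one with the smallest p, and the 6 largest differences in each direction. Others are named where a count or pattern needed them, after their values were seen. Promoter sequences are from RefSeq (GRCm38.p6), not the authors' build. Exon overlap was taken from GENCODE M21. The same-numbered libraries (2 and 3 of each group) share only a number.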

Additional observations from a re-analysis of the deposited data

How the results depend on the processing

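Of 19 alternatives, 18 were planned and 1, leaving out cKO replicate 4 and control replicate 3 together, was chosen after seeing the data. The count of cilium genes past the threshold was 0 in all but 1. A replicate block uses the 4 libraries numbered 2 and 3 and leaves 1 residual degree of freedom. With it the count was 1 of 56 (Mkks, log2 fold change −0.425, limma adjusted p = 0.0385). Over all genes it was 192 of 12599, a like share. The same 4 libraries without the block gave 0 cilium genes. Same-numbered libraries had deviations that correlated at 0.47 for number 2 and −0.052 for number 3, and the labels do not pair them. The count over all genes, 1 as reported, was 3 with the length trend removed, median centring, no filter, upper-quartile scaling and voom on recovered reads, and 2 with a 5 RPKM filter, with no variance trend and without both libraries named above. The causes were not tested.

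The sign changed in 1 or more alternatives for 32 cilium genes, 31 of them on leaving out 1 library. Their log2 fold changes as reported were all small, at most 0.115 in size, for Ift74. The values they reached were not all small: without 1 library Ift27 ran from −0.279 to 0.0573 and Bbs2 from −0.152 to 0.161. The split was 14 higher and 42 lower with the replicate block. Values follow only for genes most abundant or lowest in p in their role class, or with the largest differences. With the replicate block, and in the same 4 libraries without it, Ahi1 was −0.00283, Ift20 −0.0886, Kifap3 −0.0375 and Unc119 −0.00688. Without cKO replicate 4 and control replicate 3, Ahi1 was −0.00695, B9d2 0.0265, Kifap3 −0.0117 and Rpgrip1 −0.0425. Kifap3 was −0.000656 with the length trend removed, −0.0166 by quantile normalization, −0.0173 by upper-quartile scaling and −0.0131 by voom. Leaving out 1 library in turn gave ranges of −0.0231 to 0.201 for Ahi1, −0.206 to 0.0324 for Arl6, −0.182 to 0.12 for B9d2, −0.185 to 0.00383 for Bbs4, −0.0747 to 0.236 for Ift20, −0.0509 to 0.062 for Kifap3, −0.015 to 0.0971 for Rpgrip1 and −0.0117 to 0.129 for Unc119. With 3 pooled libraries a group, and 12336599 reads in the shallowest, small differences were not detectable.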
